A study of Rattus norvegicus with 12 samples.

Results

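The tumour necrosis factor (TNF) superfamily and its receptors were followed in the thoracic cord after mild compression injury, in female rats of the Sprague-Dawley strain aged 10 weeks. Members were the probes whose gene symbol begins as a TNF superfamily ligand or receptor, lymphotoxin, TNF receptor-associated factor (TRAF), baculoviral IAP repeat (BIRC) or TNF-induced gene, with a detection p-value under 0.05 on at least 2 of the 12 arrays. Of 44 such probes on the array, for 43 genes, 32 probes for 32 genes passed, out of 13793 probes tested and 22226 on the array, or 9336 named genes tested. The members were 8 ligands, 9 receptors, 5 TRAF adaptors, 3 BIRC proteins and 3 genes grouped as TNF-induced by the Tnfaip symbol alone. The other 4 genes share only the start of the symbol, namely Ltbp1, Ltbp2, Ltbp4 and Traf3ip3. The 12 probes under the detection minimum were Ltb4r, Ltb4r2, Tnfaip2, Tnfrsf10b, Tnfrsf14, Tnfrsf17, Tnfrsf18, Tnfrsf26, Tnfsf11, Tnfsf4, Traf3ip2 and a second probe of Traf3. Wild-type rats and rats with the G93A SOD1 mutation were compared; this substitution in superoxide dismutase 1 causes a familial form of amyotrophic lateral sclerosis. For each genotype there was 1 pool of RNA from cords taken at 30 min, 4 h, 24 h and 7 d from injury and, for sham surgery, at 30 min and 4 h, which gives 12 pools on 12 Illumina arrays. The number of animals in a pool and the promoter of the transgene were not given in the sources used here. No sham pool was taken at 24 h or 7 d, so those times were compared with the mean of the 4 sham pools.

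Ligands of the TNF superfamily are mostly membrane proteins that act as trimers, and they cluster their receptors on the target cell. The occupied receptor recruits TRAF adaptors and the ubiquitin ligases Birc2 and Birc3 (cIAP1 and cIAP2), which carry the signal to NF-kB and restrain the arm that leads to cell death. In the injured cord, TNF itself is known as an early signal of microglia, and Tnfrsf12a (Fn14), the receptor of TWEAK, is known as a gene induced by growth factors and tissue injury.

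Promoters are shown for Tnfrsf12a and Birc2, which were both higher at 4 h, for Tnfaip8l2, which was higher at 7 d, and for Tnf, whose probe was near background. Each runs from 250 bases before to 50 after the start of the gene, 5′ to 3′ on the gene's strand, from RefSeq on GRCr8. Capitals mark every match, on either strand, to an NF-kB-like motif, GGG and CC parted by 5 bases of any kind, or to TGANTCA, which resembles an AP-1 site.
Tnfrsf12a (GRCr8 chr10:13213599-13213898, minus strand): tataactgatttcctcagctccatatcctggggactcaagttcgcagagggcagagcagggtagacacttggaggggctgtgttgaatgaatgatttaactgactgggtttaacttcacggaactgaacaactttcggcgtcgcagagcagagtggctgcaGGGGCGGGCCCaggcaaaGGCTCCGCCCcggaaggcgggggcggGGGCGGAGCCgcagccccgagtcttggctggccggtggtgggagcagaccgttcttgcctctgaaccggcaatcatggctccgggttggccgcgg
Birc2 (GRCr8 chr8:13271491-13271790, minus strand): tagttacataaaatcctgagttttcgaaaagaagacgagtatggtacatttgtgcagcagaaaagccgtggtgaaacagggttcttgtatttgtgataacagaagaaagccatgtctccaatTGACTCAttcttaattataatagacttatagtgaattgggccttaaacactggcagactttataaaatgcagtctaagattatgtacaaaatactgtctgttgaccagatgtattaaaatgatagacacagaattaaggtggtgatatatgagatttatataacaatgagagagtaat
Tnfaip8l2 (GRCr8 chr2:185415687-185415986, minus strand): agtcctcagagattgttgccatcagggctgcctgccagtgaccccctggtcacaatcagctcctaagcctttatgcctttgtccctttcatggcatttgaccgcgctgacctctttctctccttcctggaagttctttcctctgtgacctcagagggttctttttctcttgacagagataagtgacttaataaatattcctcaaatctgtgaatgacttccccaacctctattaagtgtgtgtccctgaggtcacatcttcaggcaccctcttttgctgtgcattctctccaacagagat
Tnf (GRCr8 chr20:3626435-3626734, plus strand): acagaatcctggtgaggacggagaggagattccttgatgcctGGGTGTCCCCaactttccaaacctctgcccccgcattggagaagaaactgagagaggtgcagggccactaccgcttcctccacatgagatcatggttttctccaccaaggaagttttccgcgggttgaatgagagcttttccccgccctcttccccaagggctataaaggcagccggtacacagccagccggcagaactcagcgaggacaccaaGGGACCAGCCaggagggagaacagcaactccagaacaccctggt
Of the 28 members with a promoter in the RefSeq table, 18 held the NF-kB-like motif and 1, Birc2, held a match to TGANTCA. Over all 33469 promoters of that table the shares were 47.3% and 7.33%. Tnfrsf12a held 4 matches to the NF-kB-like motif, which partly overlap, Tnf held 2, and Tnfaip8l2 held neither motif in this window. The other 4 members had no promoter there. In the same annotation, Lta, Tnf and Ltb are neighbours on chromosome 20 and Birc2 and Birc3 on chromosome 8, with 0 protein-coding genes between them.

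Probe identifiers were joined to the values after sorting them as text, a pairing inferred from the data and not stated by the authors. With it, 8.2% of array calls for 185 olfactory and vomeronasal receptor probes and 90.5% for 111 ribosome and proteasome probes were above background, against 48.3% and 52.8% as deposited. The wild-type 30 min injury pool stood apart. It had 41.3% of probes and 13 of the 32 members detected, against 49.6% to 53.8% and 21 to 27 in the other 11 pools. Its estimated background SD was 14.7 signal units against 4.49 to 6.97. Its erythrocyte markers had a summed deposited signal of 78959.2, against 26931.5 to 43129.3 in the other 11 pools. Skeletal muscle markers summed to 2927.7 in it, against 196.3 to 2682.2. The part of these cells in its member values was not tested. Neuronal, oligodendrocyte and astrocyte markers were all detected in sham cord, with summed deposited signals of 39854 to 42717.7, 25889.7 to 27728.3 and 26474.2 to 28791.6. The Sod1 probe lay between 12.30 and 12.96 in wild-type and between 12.44 and 12.91 in G93A pools on the log2 scale, a difference of -0.05 ± 0.10 (adjusted p = 0.975, limma). Whether this probe measures the mutant transgene was not given, so it does not check the genotype labels. The background estimate behind all values was settled after calls under 2 other estimates had been seen. Under both of those, 3 of the 27 calls of single members were lost (Tnfrsf1a between the sham times, Tnfsf13b at 24 h and Tnfrsf21 at 7 d), and Birc3 at 4 h, Ltb at 24 h, and Tnfsf13b and Tnfaip8l2 between 24 h and 7 d were called in addition. In bulk RNA, fewer cells of a type and less RNA per cell cannot be told apart.

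Across the course, 13 of the 32 members passed the threshold in at least 1 contrast and 19 in none. The 13 are 40.6% of members, beside 32.2% of all probes. All 4 genes that share only the start of the symbol are among the 13, so this is not a share of the TNF family alone. Those genes made 3 of the calls at 24 h, 3 of those at 7 d and all 4 higher calls from 4 h to 24 h after injury. Values are normalized log2 signals, differences are log2 with the standard error of the limma fit, and a member was called at an adjusted p under 0.05 (Benjamini-Hochberg over 13793 probes). At 30 min after injury 0 members were called, while 0.145% of all probes were. In that contrast 7 members, and 929 of the 13793 probes, had an unadjusted p under 0.05. At 4 h 2 members were called, both higher, against 0.384% of all probes (0.348% higher and 0.0363% lower). At 24 h 7 members were called, all higher, which is 21.9% of members beside 22.1% of all probes (11.6% higher and 10.5% lower). At 7 d 9 were higher and 1 was lower, 31.2% of members beside 21.8% of all probes (11.2% higher and 10.6% lower). The share of members called at 24 h was thus close to that of the array as a whole. Over all 32 members the median difference from sham was 0.23 at 24 h and 0.24 at 7 d, against -0.03 and -0.05 over all probes. The 6 conditions shared 5 residual degrees of freedom, and every pool is a single array, so the error is that of the genotype difference between conditions. The heatmap of members by pool shows these values by role.

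**Figure D1:**
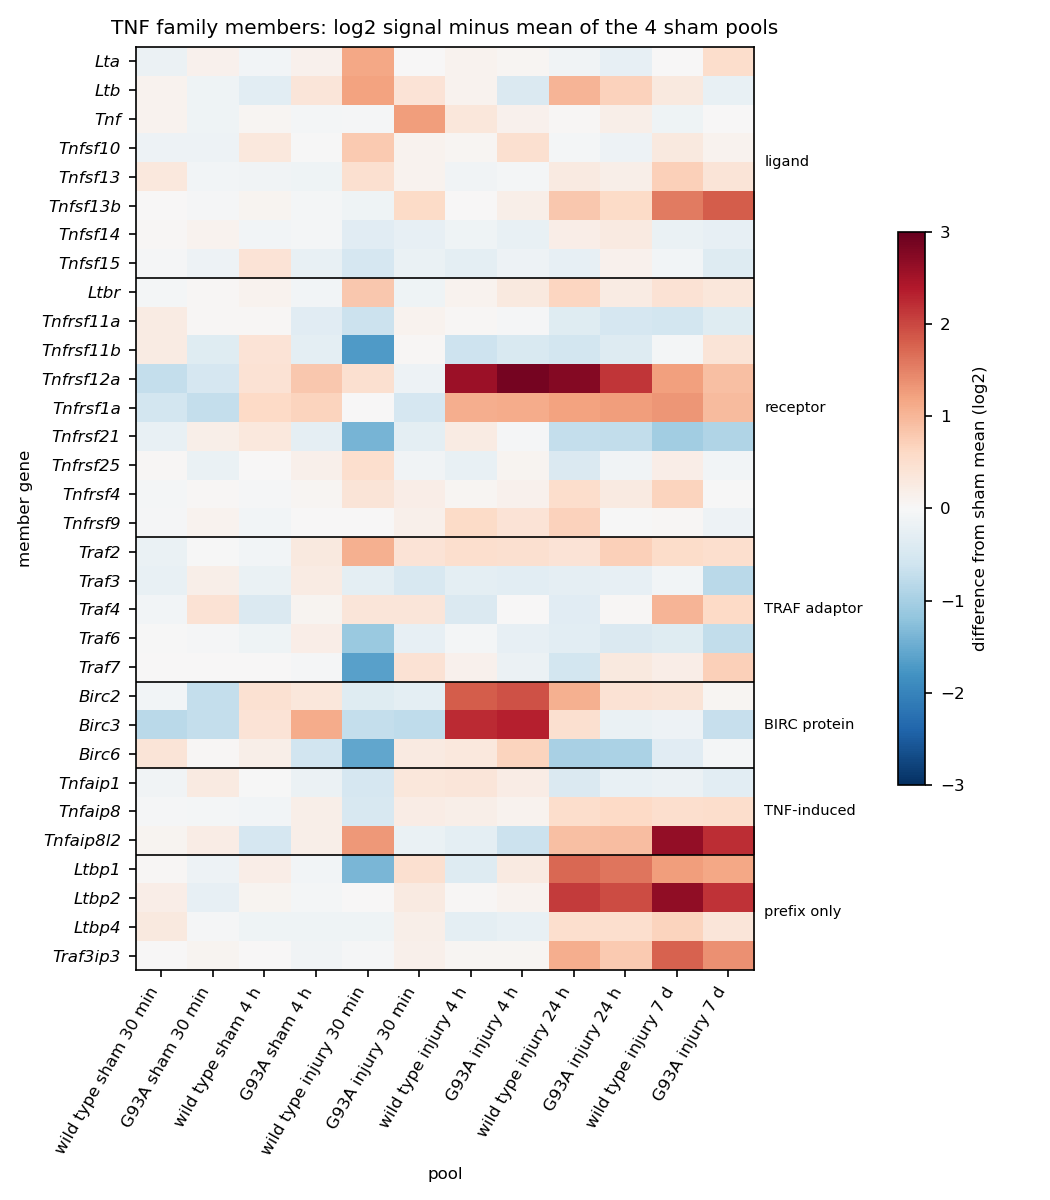
Rows are the 32 members in order of role and columns the 12 pools; colour is the log2 signal minus the mean of the 4 sham pools, from -3 (blue) to 3 (red). Tnfrsf12a, Birc2 and Birc3 are red in both 4 h injury pools, Ltbp2 and Traf3ip3 in the 24 h and 7 d pools, and the wild-type 30 min injury column departs from its G93A partner.

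Among the 8 ligands, none was called at 4 h, Tnfsf13b was called at 24 h, and Tnfsf13b and Tnfsf13 were called at 7 d. Tnfsf13b encodes BAFF, a survival factor of B cells, and Tnfsf13 encodes its relative APRIL. Within each pair of values the wild-type pool is given first and the G93A pool second. Tnfsf13b measured 4.60 and 4.54 at 30 min and 4.66 and 4.53 at 4 h in sham pools. After injury it measured 4.46 and 5.16 at 30 min, 4.58 and 4.75 at 4 h, 5.38 and 5.17 at 24 h and 6.13 and 6.40 at 7 d. The 24 h and 7 d pools lay above all 4 sham pools, in which the probe was not well above background. It passed the detection filter through injured pools alone, as did Tnf, Tnfrsf4, Tnfrsf9 and Traf3ip3, so that injured pools had to be the high ones and a test of such a member against sham is conditioned on that choice.

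Tnfsf13b was at least 1.43-fold higher at 24 h (fitted difference 0.69 ± 0.22, adjusted p = 0.0396, limma) and at least 2.85-fold higher at 7 d (1.69 ± 0.22, adjusted p = 0.00029). These bounds set the mean of the injured pools against the lowest signal detected on each sham array, or the probe's own where higher. The 7 d call held whichever of the 12 pools was left out. The 24 h call held only without either 30 min injury pool or the G93A 7 d pool, and was lost against the 4 h sham pools alone (0.68, adjusted p = 0.0985), with the background estimated from all probes and with no detection filter (adjusted p = 0.0812). With no filter the adjusted p at 7 d was 0.00056 (limma). That fit does not undo the choice of Tnfsf13b through its injured pools, so it is no independent support.

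Tnfsf13 measured 8.76 and 8.36 at 30 min and 8.33 and 8.30 at 4 h in sham pools and 8.91 and 8.55 at 30 min, 8.33 and 8.38 at 4 h, 8.71 and 8.62 at 24 h and 9.16 and 8.82 at 7 d after injury. Both 7 d pools lay above all sham pools, by a margin that the wild-type 30 min sham pool nearly closed. The difference at 7 d was 0.55 ± 0.18 (1.47-fold, adjusted p = 0.0477, limma), and among the fits that left out 1 pool it was called only without either 30 min injury pool. Against the 4 h sham pools alone the call was lost (0.67, adjusted p = 0.0512).

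Tnf, the founding ligand and a product of activated microglia and macrophages, was at the edge of detection. Its deposited signal was 44.2 in the G93A pool at 30 min after injury and 16.5 in the wild-type pool at 4 h, the only detected arrays, and 4.67 in the wild-type pool at 30 min. On the log2 scale Tnf measured 4.67 and 4.44 at 30 min and 4.62 and 4.51 at 4 h in sham pools and 4.53 and 5.82 at 30 min, 4.91 and 4.69 at 4 h, 4.61 and 4.75 at 24 h and 4.43 and 4.57 at 7 d after injury. Only the G93A 30 min injury pool stood above the rest, and the difference at 30 min was 0.62 (adjusted p = 0.613). With the wild-type 30 min injury pool left out, the fitted difference at 30 min was 1.29, which rests on the 1 injured pool left. That pool was at least 2.12-fold above the 30 min sham pools, in neither of which the probe was detected. Tnf passed the detection filter partly through that same pool, so its height there is a condition of membership and no independent support.

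Ltb, a subunit of the membrane lymphotoxin heterotrimer, was detected on all 12 arrays and differed by 0.86 at 24 h (adjusted p = 0.0597). It was called at 24 h when the background was estimated from all probes. The ligands Lta, Tnfsf10 (TRAIL), Tnfsf14 (LIGHT) and Tnfsf15 (TL1A) passed in no contrast and were detected on 6, 3, 4 and 2 arrays.

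Among the 9 receptors, Tnfrsf12a and Tnfrsf1a were higher after injury and Tnfrsf21 was lower at 7 d. Tnfrsf12a measured 7.40 and 7.61 at 30 min and 8.54 and 8.93 at 4 h in sham pools. Injured cord gave 8.59 and 7.96 at 30 min, 10.69 and 10.98 at 4 h, 10.87 and 10.26 at 24 h and 9.34 and 9.03 at 7 d. All pools from 4 h on lay above every sham pool, the 4 h and 24 h pools by the widest margin. It rose by 2.10 ± 0.28 at 4 h against sham of that time (4.28-fold, adjusted p = 0.0162, limma) and by 2.45 ± 0.24 at 24 h (5.45-fold, adjusted p = 9.37e-05). At 7 d it was still higher, by 1.06 ± 0.24 (2.09-fold, adjusted p = 0.00866), after a fall by 1.38 from 24 h (adjusted p = 0.021; 3.24% of all probes were called in that contrast, 2.07% higher and 1.17% lower).

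Its 4 h sham pools lay above the 30 min ones, by 1.24 (adjusted p = 0.233). Against the 4 h sham pools alone the difference was 1.83 at 24 h (adjusted p = 0.00244) and 0.44 at 7 d (adjusted p = 0.331). The 24 h call held whichever pool was left out. The 4 h call was lost without either 4 h injury pool or the wild-type 4 h sham pool, the 7 d call without the wild-type 7 d pool, and the fall from 24 h to 7 d when any 1 of the 4 pools compared was left out.

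Tnfrsf1a, the main death-domain receptor of TNF, measured 7.72 and 7.54 at 30 min and 8.87 and 8.93 at 4 h in sham pools. In injured pools it measured 8.28 and 7.76 at 30 min, 9.36 and 9.38 at 4 h, 9.47 and 9.53 at 24 h and 9.60 and 9.22 at 7 d. The 4 h sham pools lay more than 1 log2 unit above the 30 min sham pools, and all injured pools from 4 h on lay above both. Tnfrsf1a was the only member called between the sham times, higher at 4 h by 1.27 ± 0.22 (2.41-fold, adjusted p = 0.0494, limma), where 0.174% of all probes were called. This call held only when either 30 min injury pool was left out, and was lost with the background estimated from all probes.

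After injury the difference was 0.47 at 4 h (adjusted p = 0.842), and Tnfrsf1a rose by 1.23 ± 0.19 at 24 h (2.35-fold, adjusted p = 0.00114) and by 1.14 ± 0.19 at 7 d (2.21-fold, adjusted p = 0.00144). Against the 4 h sham pools alone these were 0.60 (adjusted p = 0.0936) and 0.51 (adjusted p = 0.149). The 24 h call held whichever pool was left out, and the 7 d call was lost without the wild-type 7 d pool.

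Tnfrsf21 (DR6), a death-domain receptor of neurons and oligodendrocyte precursors, measured 6.51 and 6.90 at 30 min and 7.04 and 6.45 at 4 h in sham pools. In injured pools it measured 5.34 and 6.44 at 30 min, 6.97 and 6.69 at 4 h, 6.01 and 5.98 at 24 h and 5.69 and 5.82 at 7 d. Both pools at 7 d and both at 24 h lay below every sham pool. It fell by 0.97 ± 0.32 at 7 d (adjusted p = 0.0481, limma), and the difference at 24 h was -0.73 (adjusted p = 0.124). The 7 d call held only without either 30 min injury pool or the G93A 4 h sham pool, and was lost with the background estimated from all probes and against the 4 h sham pools alone (adjusted p = 0.0963). Neuronal markers were lower at 7 d for 7 of 8 probes and oligodendrocyte markers for 3 of 7, and their part in this difference was not tested.

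The other 6 receptors passed in no contrast. They are Ltbr, the lymphotoxin beta receptor, Tnfrsf11a (RANK), Tnfrsf11b (osteoprotegerin, the soluble decoy receptor for the ligand of RANK), Tnfrsf25 (DR3), Tnfrsf4 (OX40) and Tnfrsf9 (4-1BB). Tnfrsf4 and Tnfrsf9, costimulatory receptors of T cells, were each detected on 3 arrays, all of injured cord.

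The courses of 8 members are plotted by pool and time.

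**Figure D2:**
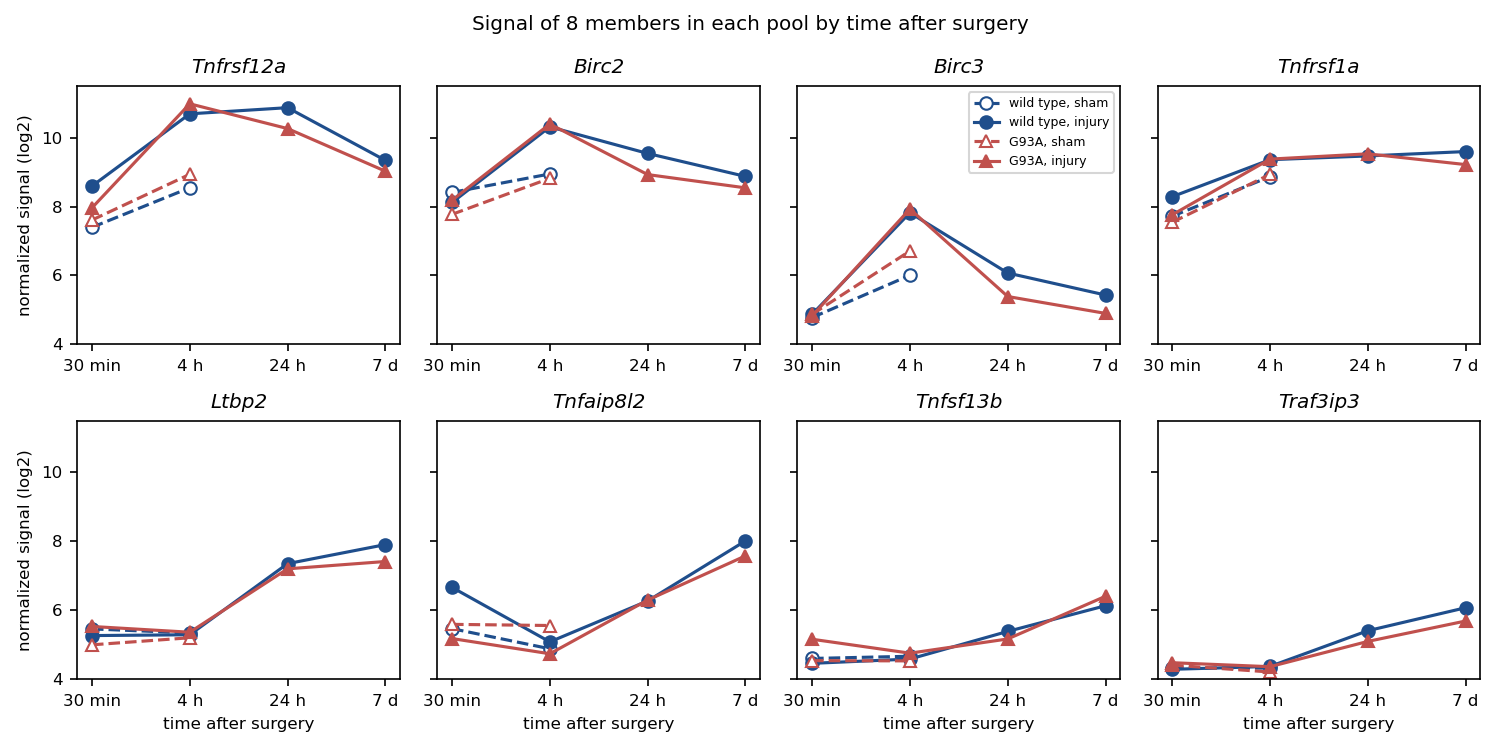
Each panel plots the normalized log2 signal of 1 member against time after surgery, with 1 point per pool: circles are wild type, triangles G93A, filled symbols injury and open symbols sham. Tnfrsf12a, Birc2 and Birc3 are high at 4 h in both genotypes, while Ltbp2, Tnfaip8l2, Tnfsf13b and Traf3ip3 are highest at 7 d.

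Of the 5 TRAF adaptors, 1 was called. Traf4, a family member known mainly from development and epithelia, measured 6.67 and 7.18 at 30 min and 6.31 and 6.82 at 4 h in sham pools. The injured pools gave 7.10 and 7.10 at 30 min, 6.31 and 6.77 at 4 h, 6.41 and 6.78 at 24 h and 7.77 and 7.35 at 7 d. The 7 d pools lay above every sham pool, the G93A one narrowly. Traf4 was higher at 7 d by 0.81 ± 0.26 (1.76-fold, adjusted p = 0.0422, limma), with differences of 1.27 in wild-type and 0.35 in G93A pools. The call held only without either 30 min injury pool or the G93A 7 d pool. Traf2, the adaptor that recruits Birc2 and Birc3, Traf3, Traf6 and Traf7 passed in no contrast, with differences from sham between -0.65 and 0.85 over Traf2, Traf3, Traf4, Traf6 and Traf7 at 30 min.

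Of the 3 BIRC proteins, Birc2 was higher at 4 h and at 24 h, and Birc2 and Birc3 both fell from 4 h to 24 h after injury. Birc2 measured 8.41 and 7.77 at 30 min and 8.95 and 8.82 at 4 h in sham pools. Its values after injury were 8.12 and 8.18 at 30 min, 10.31 and 10.40 at 4 h, 9.54 and 8.93 at 24 h and 8.87 and 8.54 at 7 d. The 4 h pools lay above every other pool, while the G93A 24 h pool lay below the wild-type 4 h sham pool, so that at 24 h the groups overlapped. Birc2 rose by 1.47 ± 0.23 at 4 h (2.77-fold, adjusted p = 0.0315, limma) and by 0.75 ± 0.20 at 24 h (1.68-fold, adjusted p = 0.0217).

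The 4 h call of Birc2 held only without either 30 min injury pool or the G93A 24 h pool. Its 24 h call was lost without either 24 h pool, the wild-type 4 h sham pool or the G93A 30 min sham pool, and against the 4 h sham pools alone (0.35, adjusted p = 0.355).

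Birc3 measured 4.77 and 4.87 at 30 min and 6.0 and 6.71 at 4 h in sham pools. After injury it measured 4.87 and 4.82 at 30 min, 7.82 and 7.93 at 4 h, 6.07 and 5.39 at 24 h and 5.43 and 4.90 at 7 d. It too was highest in the 4 h injury pools, and its 4 h sham pools lay above the 30 min ones. The difference from sham at 4 h was 1.52 ± 0.33 (adjusted p = 0.106), which was called with the background estimated from all probes and, at an adjusted p = 0.0186, with the wild-type 30 min injury pool left out.

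From 4 h to 24 h after injury Birc3 fell by 2.15 (adjusted p = 0.00375, limma) and Birc2 by 1.12 (adjusted p = 0.014), among 6 members called in that contrast, where 8.64% of all probes were, 5.42% higher and 3.23% lower. The fall of Birc3 was lost without the wild-type 4 h or the G93A 24 h pool, and that of Birc2 when any 1 of the 4 pools compared was left out. Birc2 and Birc3 are closely related neighbours, and whether their probes tell them apart was not tested. Birc6, a large ubiquitin-conjugating relative, passed in no contrast and differed by -0.96 at 24 h (adjusted p = 0.12).

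Of the 3 genes grouped as TNF-induced by the Tnfaip symbol, Tnfaip8l2 was higher at 7 d. Whether TNF induces any of the 3 was not tested. Tnfaip8l2 (TIPE2) is known as a regulator of immune responses in myeloid cells and lymphocytes. It measured 5.47 and 5.59 at 30 min and 4.88 and 5.56 at 4 h in sham pools. Injured pools had 6.66 and 5.18 at 30 min, 5.08 and 4.74 at 4 h, 6.27 and 6.29 at 24 h and 8.01 and 7.58 at 7 d. Both 7 d pools lay above every other pool, and the wild-type 30 min injury pool was the next highest. Tnfaip8l2 rose by 2.42 ± 0.36 at 7 d (5.36-fold, adjusted p = 0.000805, limma), and this call held whichever pool was left out. At 24 h the difference was 0.91 (adjusted p = 0.0939). Tnfaip8 and Tnfaip1 passed in no contrast, with differences of 0.51 and -0.25 at 7 d.

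The 4 genes that share only the start of the symbol are no part of the TNF family. Ltbp1, Ltbp2 and Ltbp4 encode latent TGF-beta binding proteins of the extracellular matrix, or relatives of them, and Traf3ip3 a TRAF3-interacting protein of lymphocytes. Together they made 3 of the 7 calls at 24 h and 3 of the 10 at 7 d.

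Ltbp2 measured 5.46 and 4.99 at 30 min and 5.34 and 5.20 at 4 h in sham pools. Values in injured pools were 5.26 and 5.53 at 30 min, 5.29 and 5.36 at 4 h, 7.35 and 7.20 at 24 h and 7.91 and 7.41 at 7 d. The 24 h and 7 d pools lay well above all others, and the 4 h injury pools lay among the sham pools. It rose by 2.03 ± 0.24 at 24 h (4.08-fold, adjusted p = 0.000304, limma) and by 2.41 ± 0.24 at 7 d (5.32-fold, adjusted p = 5.99e-05), and both calls held whichever pool was left out.

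Ltbp1 measured 6.75 and 6.57 at 30 min and 6.91 and 6.64 at 4 h in sham pools. After injury the signal was 5.34 and 7.20 at 30 min, 6.32 and 6.99 at 4 h, 8.45 and 8.31 at 24 h and 7.98 and 7.89 at 7 d. All 4 late pools lay above the others, and the wild-type 30 min injury pool lay lowest. It rose by 1.66 ± 0.39 at 24 h (adjusted p = 0.0116, limma) and by 1.21 ± 0.39 at 7 d (adjusted p = 0.0451). The 24 h call was lost without either 24 h pool, and the 7 d call held only without either 30 min injury pool and was lost against the 4 h sham pools alone (adjusted p = 0.114).

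Traf3ip3 was not well above background in any sham pool, at 4.32 and 4.41 at 30 min and 4.32 and 4.21 at 4 h. In injured cord it was 4.28 and 4.48 at 30 min, 4.37 and 4.36 at 4 h, 5.40 and 5.09 at 24 h and 6.07 and 5.69 at 7 d. The late pools did not overlap the sham pools. It was at least 1.41-fold higher at 24 h (fitted difference 0.94 ± 0.17, adjusted p = 0.00356, limma) and at least 2.18-fold higher at 7 d (1.57 ± 0.17, adjusted p = 0.000109). Its probe was detected in the 4 late injury pools alone and passed the filter through them, so their height is a condition of membership. With no filter the adjusted p-values were 0.00344 and 7.19e-05 (limma). That fit does not undo this choice of member, so they are no independent support. The 24 h call was lost without the wild-type 24 h pool, and the 7 d call held whichever pool was left out.

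Between 4 h and 24 h after injury Ltbp1, Ltbp2 and Ltbp4 were higher by 1.72, 1.95 and 0.77, and Traf3ip3, which was detected in neither 4 h injury pool, was at least 1.44-fold higher. Adjusted p-values were 0.0369, 0.00276, 0.0378 and 0.0208 (limma). The rise of Ltbp4 was called only without either 30 min injury pool among the fits that left out 1 pool, that of Ltbp2 was lost without the wild-type 4 h pool, that of Traf3ip3 when any 1 of the 4 pools compared was left out, and that of Ltbp1 held only without either 30 min injury pool or either 4 h sham pool.

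**Figure D3:**
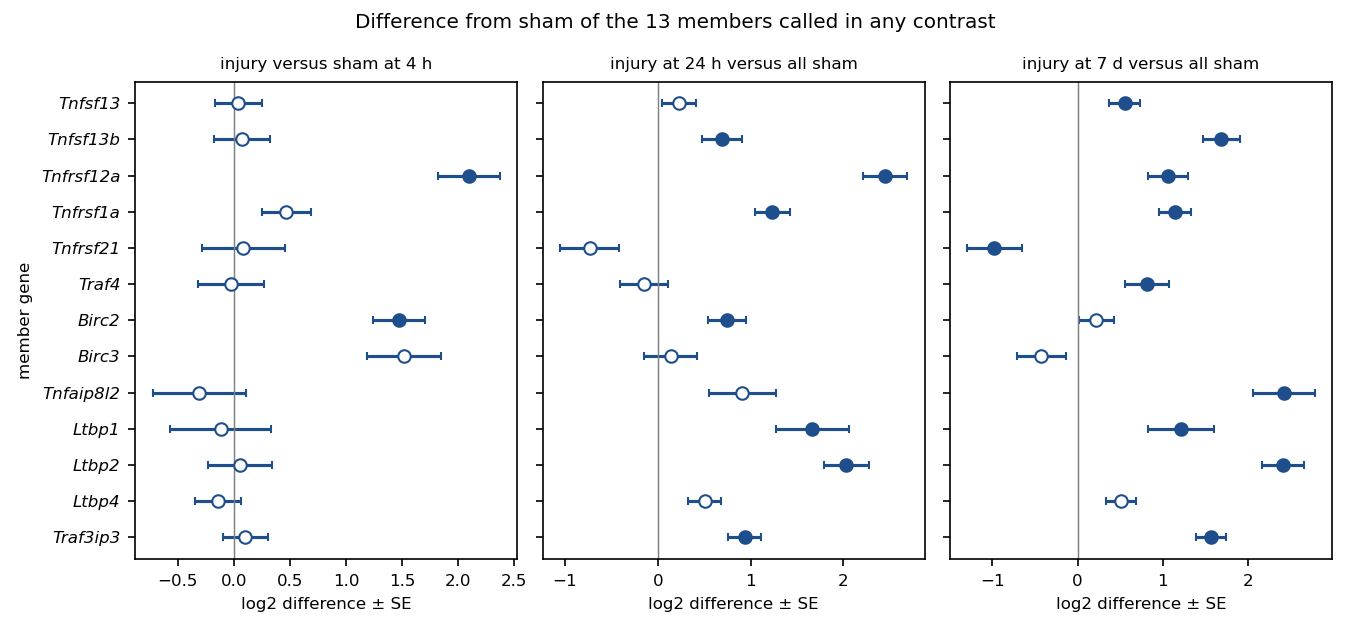
Points are log2 differences and bars 1 standard error for the 13 members called in any contrast, at 4 h against the matching sham pools, then at 24 h and 7 d against the mean of the 4 sham pools; filled points passed the threshold. Only Tnfrsf12a and Birc2 are filled at 4 h, and Tnfrsf21 is the only filled point below 0.

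Between genotypes 0 of the 32 members were called, and 0% of all probes, by limma over the 6 pairs of pools. At an unadjusted p under 0.05 there were 0 members and 374 probes. The lowest member p was 0.0785, for Birc2 (difference -0.26), and its adjusted value 0.975. The genotype difference of Traf7, a TRAF relative that lacks the usual TRAF domain, was 0.52. For Traf7 the 30 min injury pair differed by 2.06 and the other pairs by -0.30 to 0.86. Its probe was not detected in the wild-type pool of that 30 min pair. At 30 min after injury 8 members differed at least 2-fold between the genotypes, and in each of the other 5 pairs 0 did; the wild-type pool of the 30 min pair had 13 of 32 members detected. The count over all probes moved in the same way, with 2618 in the 30 min injury pair and 13 to 294 in the others. Whether the genotype difference after late injury differed from that in sham cord was tested as an interaction with 3 residual degrees of freedom. It was called for 0 members and 0% of probes, with 2 members and 377 probes at an unadjusted p under 0.05. Those 2 were Birc3 (-1.01 ± 0.40, adjusted p = 0.999) and Tnfrsf12a (-0.76 ± 0.33, adjusted p = 0.999). Over the members the genotype differences ran from -0.29 to 0.52, with standard errors of 0.10 to 0.28, and the lack of calls does not show that the genotypes were alike.

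Relatives under other symbols, signalling partners and target genes were read from lists made for this work. Of 7 tested probes of family members under other symbols, 2 were higher and 1 lower at 24 h, and 3 were higher at 7 d. Over all probes 11.6% were higher and 10.5% lower at 24 h, and 11.2% higher and 10.6% lower at 7 d. The neurotrophin receptor Ngfr, a TNF receptor family member, rose by 1.30 ± 0.25 at 24 h and by 2.73 ± 0.25 at 7 d (adjusted p = 0.00392 and 3.12e-05, limma). Cd40, a receptor of antigen-presenting cells, rose by 0.96 ± 0.26 and 1.29 ± 0.26, Fas rose by 0.72 ± 0.22 at 7 d, and Relt fell by 0.80 at 24 h. Of 30 probes of the TNF receptor and NF-kB signalling list, 0 were called at 4 h (1 under either other background estimate), 4 were higher at 24 h and 9 at 7 d. These counts stand beside 0.384% of all probes called at 4 h, 11.6% higher at 24 h and 11.2% higher at 7 d. Ripk3, the kinase of necroptosis, rose by 2.40 ± 0.29 at 24 h, and the death-domain adaptor Fadd by 1.37 ± 0.23 at 24 h and 1.11 ± 0.23 at 7 d. Casp8, the caspase recruited by Fadd, rose by 0.90 ± 0.18 at 7 d, and the NF-kB subunit Nfkb2 by 0.96 ± 0.24. From 4 h to 24 h after injury 2 probes of this list were higher and 3 lower. Among the 3 was Nfkb2, which fell by 1.10 ± 0.27. Over all probes 5.42% were higher and 3.23% lower in that contrast.

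Of 20 NF-kB target genes, 5 were higher at 30 min, 3 at 4 h and 8 at 24 h, while at 7 d 4 were higher and 4 lower. Over all probes 0.145% were higher at 30 min, 0.348% at 4 h and 11.6% at 24 h. At 7 d 11.2% of all probes were higher and 10.6% lower. Between injured pools, 8 of the 20 targets were lower at 24 h than at 4 h and 7 were lower at 7 d than at 24 h. Over all probes 3.23% and 1.17% were lower in these contrasts. The count of targets at 4 h was 7 under either of the other background estimates. Il1b was higher at 30 min and 4 h, by 2.48 ± 0.31 and 2.35 ± 0.31, and fell by 1.53 at 7 d. Between the sham times 5 of these targets were higher at 4 h, beside 0.174% of all probes. Among them were Cxcl10 (3.68 ± 0.48) and Ccl2 (2.70 ± 0.34), in the contrast in which Tnfrsf1a was called. The median of the 20 was 0.81 there, against -0.01 over all probes.

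Markers of several cell types differed from sham at 24 h and 7 d, some higher and some lower. All 10 microglia and macrophage markers were higher at 7 d and 8 of 10 at 24 h, beside 11.2% and 11.6% of all probes. Their summed deposited signal was 5128.5 to 5746.4 in sham pools, 12511.5 to 12943.2 at 24 h and 34369.3 to 41465.1 at 7 d. At 30 min after injury this sum was 6870 to 8422.3, above all sham pools, with 0 of 10 called. Lymphocyte markers were higher for 3 of 7 probes at both times, with sums of 31.7 to 135.1 in sham pools, 143.9 to 243.7 at 24 h and 205.8 to 393.8 at 7 d, and Ms4a1, which marks B cells, was detected on fewer than 2 arrays. Fibroblast and meningeal markers were higher for 0 of 5 at 24 h and 5 of 5 at 7 d, with sums of 5253.4 to 6997.5 in sham pools, 7344.6 to 7509.2 at 24 h and 14475.8 to 27975 at 7 d. Markers of dividing cells were higher for 3 of 5 probes at both times, with sums of 1984.4 to 2424.4 in sham pools, 3984.5 to 5085.1 at 24 h and 3350.7 to 3680.2 at 7 d. Endothelial markers were higher for 2 of 5 at both times, with sums of 4301.5 to 5309.1 in sham pools, 6013.6 to 6181.1 at 24 h and 6832.7 to 7033.7 at 7 d. Astrocyte markers were lower for 3 of 6 at 24 h and 4 of 6 at 7 d, with sums of 17444.3 to 18431.7 and 21647.4 to 27495.7. Neuronal markers were lower for 3 of 8 at 24 h and 7 of 8 at 7 d, and oligodendrocyte markers for 6 of 7 and 3 of 7. Of 7 neutrophil probes, 1 was higher at each of these times.

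At 4 h, when Tnfrsf12a and Birc2 were called, the microglia and macrophage sum was 5760.4 to 5833 and 0 of its 10 probes were called. Neutrophil markers summed to 99.7 to 728.7 in sham pools and 627.7 to 1690.3 at 4 h, with 0 of 7 called. The endothelial sum was 2231.9 to 2561.1 at 4 h, below all 4 sham pools, with 0 of 5 called. The part of these cell types in the members' differences was not tested.

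**Figure D4:**
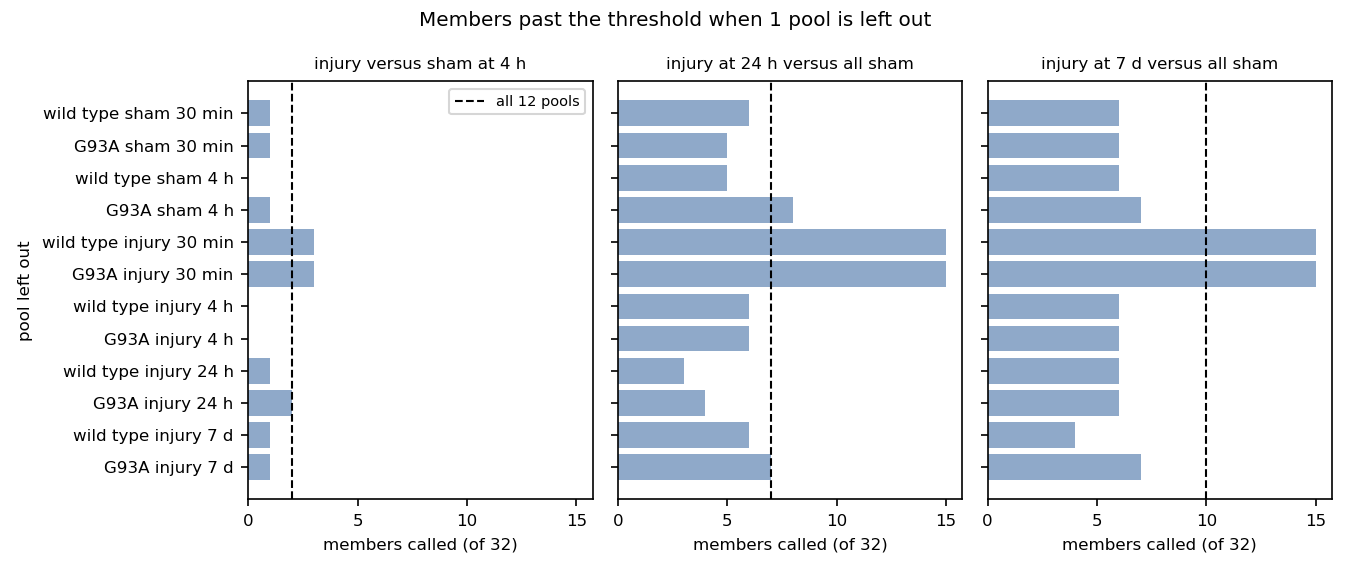
Bars count the members called, of 32, when the pool on the vertical axis is left out; the dashed line is the count with all 12 pools. Without either 30 min injury pool 15 members were called at 24 h and 15 at 7 d, and with any 1 of the other 10 pools left out, 3 to 8 and 4 to 7.

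At 24 h and 7 d the counts were highest without either pool of the 30 min injury pair. Without its wild-type pool 12 members were higher and 3 lower at 24 h and at 7 d, while the share over all probes also rose, to 38% and 36.9%. Members called then at both times and not with all pools were Tnfrsf11a, lower, and Tnfaip8, Ltbp4 and Traf2, higher. Without the G93A pool of that pair, 15 members were called at 30 min beside 32% of all probes, a comparison that rests on the wild-type pool that stood apart. At 4 h the 2 calls became 0 without either 4 h injury pool or the wild-type 4 h sham pool, and from 4 h to 24 h the 6 calls became 0 without the wild-type 4 h injury pool.

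Other settings ended further calls. With no detection filter the 7 d calls of Tnfsf13, Tnfrsf21, Traf4 and Ltbp1, that of Tnfsf13b at 24 h, that of Ltbp4 from 4 h to 24 h and that of Tnfrsf1a between the sham times were lost. Median scaling ended both calls of Birc2 that involve the 4 h injury pools, those of Tnfsf13, Traf4 and Ltbp1 at 7 d and that of Tnfrsf1a between the sham times. With the authors' series matrix values 14 of 27 calls were lost, among them both at 4 h.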

How the data were processed

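RNA pools of 2 genotypes in 6 conditions were measured on 12 arrays, 1 pool each, and grouped from the labels. The deposited intensity values are BeadStudio 3.2.6 signals, per the submitters' processing notes, and are background-subtracted, since 20.97% to 28.62% lie below 0 on an array. Per the file headers, the authors deposited a detection p-value for every probe on every array. The series matrix deposited by the authors holds intensity values that are, array by array, linear in these signals, with medians of 6.27 to 11.7; the sources used here do not name its normalization. Identifiers were sorted as text before joining, as the rule for the members requires. Of 22226 probes, 13192 had 1 gene symbol and 9034 none; names come from the platform annotation.

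Signals were normalized in limma 3.58.1 (R 4.3.3) by normexp from detection p-values, an offset of 16 and quantiles, as neqc does. The planned method was neqc without further detail, and 3 background estimates were run in turn, each with its calls in view. The first was neqc's own, from all probes. It gave background SDs of 81.4 to 134 signal units. On inspection, detection p-values were ranks among 804 to 818 negative controls, except for 231 probes (1.04%, 0 of them members). The second left out only probes whose p departed from the running median, with SDs of 58.7 to 198. The third also left out probes off the grid of ranks, with SDs of 4.49 to 14.7, and is the one reported. It was adopted for that SD, but after calls under the others had been seen, and where it changes a call the text says so.

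A fit of condition and genotype with eBayes and an intensity trend covered 13793 probes with a detection p-value under 0.05 on at least 2 arrays, with Benjamini-Hochberg adjustment within each contrast at 0.05. The fit was tested on simulated data. No condition has replicate pools of the same genotype, so p-values rest on how the genotype difference varied between conditions. They do not measure the spread between like pools or between animals. Where a fit leaves 1 pool in a condition, its spread is taken from the other conditions. For contrasts between those other conditions, leaving out either pool of the pair is thus 1 check. Members and gene lists were chosen with earlier results of these data known, so no count is independent support. Every member past the threshold is named, and of other lists up to 4 genes. Alternatives were no background correction, median scaling, the series matrix, other detection filters, no trend, no genotype term, 4 h sham pools only, 1 genotype only, and leaving out each pool. The number of arrays limits precision.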

Additional observations from a re-analysis of the deposited data

Results flagged for a closer look

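Of 32 members, 1 had a genotype difference in 1 of its 6 pairs of pools that stood far from the other 5. For Tnf the normalized values differed by 1.29 log2 (G93A minus wild type) at 30 min after injury, against -0.22 to 0.14 in the other pairs. Its probe was detected on 2 arrays and not in that wild-type pool, so the measured difference is only a bound, at least 1.36-fold. In the 4 sham pools, 2 members had 1 value far from the rest. Tnfsf13 was at 8.76 in the wild-type 30 min pool, against 8.30 to 8.36, and Tnfaip8 was at 7.21 in the G93A 4 h pool, against 6.96 to 7.00. Chance marks about 1 in 20 groups, so such counts are within what chance gives. Among the probes under the detection minimum, Tnfaip2 had a deposited signal of 18.1 in the G93A 4 h injury pool, against -2.83 to 10.6 in sham pools, and Tnfsf4 (OX40 ligand) one of 27.2 in the wild-type 7 d pool, against -0.06 to 2.38; each was detected on that 1 array.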

How the results depend on the processing

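No signed value of a called member reversed under any alternative. Of 27 calls of single members, 24 held with the background from all probes and 24 with the intermediate estimate, both added after seeing the data; 25 held with no background correction, 21 with median scaling, 13 with series matrix values, 20 with no detection filter, 25 with no trend and 26 with no genotype term. Of 14 that could be tested over probes detected on all 12 arrays, 14 held, and of 17 late calls 9 held against the 4 h sham pools. Within 1 genotype, which gives values with no test, 12 of these 17 differences lay within 1 standard error of the reported value and 0 reversed. The reported difference is the mean of the wild-type and G93A differences. The same 12 therefore result in either genotype by construction, and this is 1 check. The other 5 (Tnfrsf12a at both times, Traf4, Tnfaip8l2 and Traf3ip3 at 7 d) were larger in wild-type and so, by the same amount, smaller in G93A pools. Under both other background estimates Tnfrsf1a between shams, Tnfsf13b at 24 h and Tnfrsf21 at 7 d lost their calls, while Birc3 at 4 h, Ltb at 24 h and Tnfsf13b and Tnfaip8l2 from 24 h to 7 d gained one. Median scaling lowered the median of the wild-type 30 min injury pool to 6.05, against 6.53 to 6.70 in the others.

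Counts of members moved as follows. Between sham times, 1 became 0 with the background from all probes or the intermediate estimate, no correction, median scaling, the series matrix, no filter and no trend. At 4 h, 2 became 1 with median scaling and 0 with the series matrix. At 24 h, 7 became 4 over probes detected on all arrays and 4 against the 4 h sham pools. At 7 d, 10 became 5 with the series matrix, and 6 with no filter, with all-array detection and against the 4 h sham pools. From 4 h to 24 h, 6 became 3 with the series matrix and 2 with all-array detection. From 24 h to 7 d, 1 became 3 with either other background, no correction or median scaling, 2 with no genotype term and 0 with the series matrix.

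Family members under other symbols called went from 3 at 24 h to 1 with the series matrix, no filter, all-array detection or 4 h sham pools, and from 3 at 7 d to 1 with the last 2 of these. The signalling list went from 0 at 4 h to 1 with either other background or no correction, from 4 at 24 h to 2 with the series matrix and 1 with all-array detection, and from 9 at 7 d to 5 with the series matrix, 3 with all-array detection and 5 against 4 h sham pools. NF-kB targets went from 3 at 4 h to 7 with either other background, 5 with no correction or no genotype term, 1 with median scaling or no trend and 0 with the series matrix, and from 8 at 24 h to 4 with all-array detection or 4 h sham pools. The cause was not tested.

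Leaving out 1 pool gave 0 to 3 members between sham times, 0 to 15 at 30 min, 0 to 3 at 4 h, 3 to 15 at 24 h, 4 to 15 at 7 d, 0 to 12 from 4 h to 24 h, 0 to 4 from 24 h to 7 d and 0 for genotype and its interaction. Family members under other symbols ranged from 0 to 4 at 24 h and 1 to 4 at 7 d, the signalling list from 0 to 5, 1 to 5 and 0 to 13 at 4 h, 24 h and 7 d, and NF-kB targets from 0 to 10, 2 to 13 and 3 to 10. No paired analysis was possible because each group is 1 pool, so a block by replicate number has nothing to fit; the genotype contrast is matched by condition within the reported fit. Signals near background limit Tnf, Tnfsf10, Tnfsf14, Tnfsf15, Tnfrsf4, Tnfrsf9 and Traf3ip3, each detected on at most 4 arrays. Of these, only Traf3ip3 was called with all 12 pools. Tnfsf13b, also called, was detected on 6 arrays, all of injured cord.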
